A study of Mus musculus with 6 samples.

Results

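The genes described are 8 members of the SPARC and testican group of secreted matrix proteins, namely the testicans *Spock1*, *Spock2*, and *Spock3*, then *Sparc*, *Sparcl1*, *Smoc1*, *Smoc2*, and the related *Fstl1*. They were chosen from the 55401 genes of a count table because *Spock3* was lower in knockout cultures, and its relatives were added by family. The contrast between genotypes therefore chose them, and their differences are given as a description. Calls from tests over all genes are listed for them, but nothing is read from those calls. All 8 passed the filter on low counts, which kept 22318 genes. Expression was measured by bulk RNA-seq in Schwann cells (SCs) enriched in primary culture from dorsal root ganglia of adult mice, in 3 WT and 3 *Plxnb1*-/- cultures (labelled PB1 -/-). All cultures received forskolin and neuregulin, and were depleted of Thy1-positive cells to remove fibroblasts. The *Plxnb1*-/- line carries a transmembrane-lacZ-neo gene trap in every cell from the germ line on a C57BL/6 background, so the loss was not limited to SCs. The study's methods name both WT and *Plxnb1*+/- littermates as controls in general, while their RNA-seq section and the labels of these libraries say WT. Neither the methods nor the labels give the sex of the mice or say which cultures came from separate animals. Errors therefore measure the spread between these cultures, which may be partly technical.

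SPARC-family proteins are matricellular, which means that they are secreted into the extracellular matrix and modulate it without being its main building blocks. They share a follistatin-like domain and a calcium-binding extracellular module. Testicans add a thyroglobulin-type domain and glycosaminoglycan chains, and are known as regulators of the membrane-type matrix metalloproteinases and of cathepsin L. SPARC binds collagens and helps fibrils to assemble, SPARC-like 1 (hevin) promotes synapse formation when secreted by astrocytes, SMOC1 antagonizes bone morphogenetic protein (BMP) signaling, and FSTL1 binds BMP ligands. SCs are known to secrete SPARC.

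The stretch before the transcription start is shown for the testicans, because *Spock3* differed between genotypes while *Spock1* and *Spock2* overlapped, and for *Sparc*, the most abundant of the genes per length of exon. Each line holds the 250 bases before a start annotated by RefSeq (GRCm38.p6), read 5′ to 3′ on the strand of the gene, and capitals mark CG dinucleotides. The gene spans given further below come from another annotation, GENCODE, whose starts can differ. Against those spans, the *Spock1* stretch lies wholly before its gene. Those of *Spock3* and *Spock2* lie partly inside their genes, and that of *Sparc* wholly inside, so the stretches are not alike in position. The *Spock3* stretch is chr8:62950982-62951231 on the plus strand, that of *Spock1* chr13:57908333-57908582 on the minus strand, that of *Spock2* chr10:60106007-60106256 on the plus strand, and that of *Sparc* chr11:55420081-55420330 on the minus strand.
Spock3: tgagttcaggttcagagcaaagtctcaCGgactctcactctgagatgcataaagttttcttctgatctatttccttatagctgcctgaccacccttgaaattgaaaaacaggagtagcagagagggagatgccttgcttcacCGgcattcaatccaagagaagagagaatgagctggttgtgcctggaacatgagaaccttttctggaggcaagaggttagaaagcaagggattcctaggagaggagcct
Spock1: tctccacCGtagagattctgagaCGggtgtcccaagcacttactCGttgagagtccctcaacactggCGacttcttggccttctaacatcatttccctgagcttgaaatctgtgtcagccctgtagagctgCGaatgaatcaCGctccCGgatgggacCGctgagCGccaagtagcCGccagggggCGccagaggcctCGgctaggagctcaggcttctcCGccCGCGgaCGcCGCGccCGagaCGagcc
Spock2: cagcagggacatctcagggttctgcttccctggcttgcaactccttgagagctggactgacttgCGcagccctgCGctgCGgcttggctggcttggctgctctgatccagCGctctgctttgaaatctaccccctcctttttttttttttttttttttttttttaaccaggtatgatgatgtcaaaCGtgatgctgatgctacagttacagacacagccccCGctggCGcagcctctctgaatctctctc
Sparc: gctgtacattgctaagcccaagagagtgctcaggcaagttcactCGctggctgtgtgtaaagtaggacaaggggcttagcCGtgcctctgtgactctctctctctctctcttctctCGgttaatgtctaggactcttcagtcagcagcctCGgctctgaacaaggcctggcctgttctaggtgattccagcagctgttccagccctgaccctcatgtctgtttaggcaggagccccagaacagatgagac

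The *Spock3* stretch held 2 CG dinucleotides, against 20 for *Spock1*, 7 for *Spock2*, and 4 for *Sparc*. Over 32851 such stretches of mouse genes the median was 6, and 18.8% held fewer than *Spock3*, while 82.1% held fewer than *Spock1*. The stretch of a second annotated start of *Spock3*, at chr8:62951095-62951344 and wholly inside the GENCODE span, held 3. On either strand, the TATA box letters TATAAA were found in none of these 5 stretches and in 12.4% of all stretches. Neither were the TEAD letters CATTCC, which occur in 12.6% of all stretches. The SOX letters ACAAAG were likewise not found, and occur in 16.5% of all stretches. The AP-1 letters TGANTCA were found once, in *Spock1*, and occur in 6.75% of all stretches. The E-box letters CANNTG were found in the stretch of *Sparc* and in the second one of *Spock3*, and occur in 66.2% of all stretches. RefSeq entries were matched for 5 of the 8 genes, the fifth being *Fstl1*, with 16 CG dinucleotides.

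Libraries held between 59252048 and 77280964 counts. A floor of 3 counts corresponds to between 0.0388 and 0.0506 CPM, which covers counting error only. Values are CPM scaled by TMM, a factor for library composition, unless stated otherwise. *Plxnb1*, the targeted gene, measured 61.8, 45.4, and 96.4 CPM in WT against 13.1, 16.6, and 18.6 CPM in *Plxnb1*-/- replicates 1, 2, and 3. Of 12 SC markers, *Sox10* stood between 432 and 580 CPM, and the summed markers between 2666 and 3175 CPM in WT and between 3201 and 3664 CPM in *Plxnb1*-/- SCs. Genes listed as markers of other cell types were also detected, and which cells expressed them was not tested. The study reported high purity of its SC cultures from immunostaining. The summed level of 8 fibroblast markers lay between 5512 and 7259 CPM in WT and between 5144 and 5420 CPM in *Plxnb1*-/- cultures, and *Thy1*, the antigen used for depletion, stood between 384 and 652 CPM. The summed level of 7 mural cell markers lay between 1879 and 2504 CPM in WT and between 1702 and 1830 CPM in *Plxnb1*-/- cultures, so none of the 3 sums overlapped between genotypes. The sums rest on their most abundant genes. *Col3a1*, between 4339 and 6130 CPM, made up most of the fibroblast sum, while *Dcn* and *Lum* overlapped between genotypes with log2 fold changes of −0.0064 and 0.08. *Acta2*, *Pdgfrb*, and *Cspg4* made up most of the mural sum, while *Rgs5*, *Myh11*, and *Notch3* had log2 fold changes of 0.07, 0.21, and 0.09. Gene by gene, 4 of 8 fibroblast and 2 of 7 mural markers were lower without overlap, against 10.4% of all tested genes. Of the 12 SC markers, 11 had positive log2 fold changes, with a median of 0.19, while *Sox10* overlapped between genotypes. Over all tested genes the median was 0.0050, and 48.5% were negative. No marker of these lists was at 0, but the fibroblast markers *Dpt* and *Pi16* had mean levels of only 0.593 and 0.810 CPM. The summed level of 3 satellite glia markers lay between 762 and 883 CPM in WT and between 906 and 933 CPM in *Plxnb1*-/- cultures. *Kcnj10* made up most of it, while *Fabp7* and *Glul* overlapped. That of 5 endothelial markers overlapped, between 57.2 and 76.6 CPM in WT and between 60.4 and 66.3 CPM in *Plxnb1*-/- cultures. WT replicate 2 had the highest fibroblast and mural sums. It stood apart from the other WT cultures in the principal components (PC1 of −47.4, against −3.58 and −7.52). *Xist*, expressed from the inactive X chromosome of females, measured between 218 and 260 CPM in 5 cultures and 11.6 CPM in *Plxnb1*-/- replicate 3. *Ddx3y*, a gene of the Y chromosome, was at 0 in all WT libraries and measured 2.68, 3.57, and 77.6 CPM in *Plxnb1*-/- replicates 1, 2, and 3. Log2 fold changes of members, and of genes named from related lists, that moved by over 1.5 times without WT replicate 2 are given both ways, as are those of members that did so without *Plxnb1*-/- replicate 3.

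*Spock3* encodes testican-3, a secreted heparan sulfate proteoglycan best known from brain. It is annotated on chromosome 8 of GRCm38 (62951009 to 63357103, plus strand), a span of 406095 bases with 6046 bases of exon, and its exons overlap no other annotated gene. The WT cultures 1, 2, and 3 stood at 5.31, 4.84, and 3.91 CPM, from 340, 283, and 277 counts. In *Plxnb1*-/- replicates 1, 2, and 3 it measured 2.20, 2.43, and 2.22 CPM, from 172, 176, and 154 counts. The highest *Plxnb1*-/- culture was 1.48 CPM below the lowest WT culture, so the genotypes did not overlap. The means were 4.69 ± 0.712 CPM in WT against 2.28 ± 0.127 CPM in *Plxnb1*-/- SCs (SD, n = 3), which makes WT 2.05-fold higher in edgeR's fit (log2 fold change −1.04, standard error 0.13). Omitting any single culture gave log2 fold changes between −1.15 and −0.93. It was −1.01 without WT replicate 2 and −1.02 without *Plxnb1*-/- replicate 3, the culture with low *Xist*. In bulk samples, fewer cells of a type and less RNA per cell cannot be told apart.

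**Figure D1:**
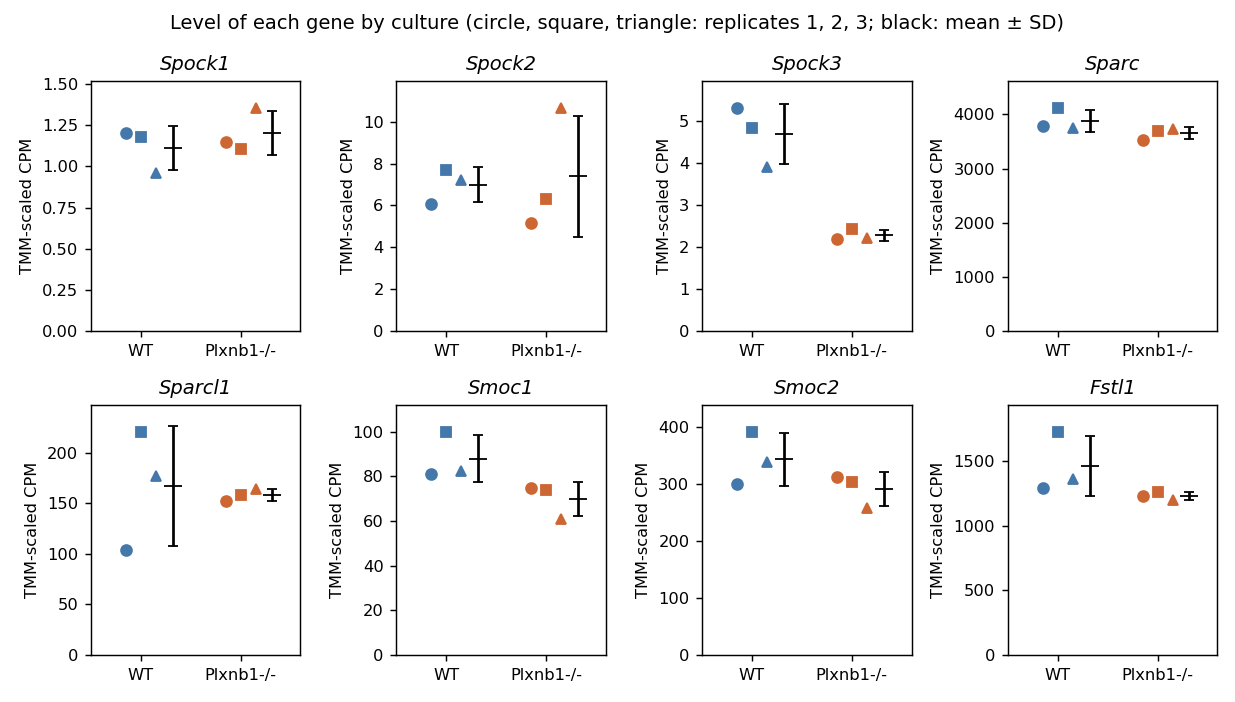
TMM-scaled CPM of each gene (vertical axis, from 0) in the 3 WT and 3 *Plxnb1*-/- cultures, with symbols for replicates 1 to 3 and the mean ± SD in black. *Spock3* shows the widest gap between genotypes for its level, while *Spock1*, *Spock2*, *Sparcl1*, and *Smoc2* overlap.

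The other testicans did not share this pattern. *Spock1* encodes testican-1, which is known to inhibit cathepsin L, and lies on chromosome 13 (57421195 to 57908332, minus strand). It measured 1.20, 1.18, and 0.960 CPM in WT against 1.15, 1.10, and 1.36 CPM in *Plxnb1*-/- replicates 1, 2, and 3, from between 68 and 94 counts per library. The genotypes overlapped, and its log2 fold change was 0.11 (standard error 0.17), which became 0.02 without *Plxnb1*-/- replicate 3 and 0.013 without WT replicate 3. *Spock2* encodes testican-2, the testican that is known to relieve the inhibition by the others of a membrane-type metalloproteinase, and lies on chromosome 10 (60106219 to 60135198, plus strand). It measured 6.08, 7.71, and 7.22 CPM in WT against 5.16, 6.33, and 10.7 CPM in *Plxnb1*-/- replicates 1, 2, and 3. A single *Plxnb1*-/- culture was above all WT cultures and another below them. Its log2 fold change was 0.07 (standard error 0.23), 0.15 without WT replicate 2, and −0.28 without *Plxnb1*-/- replicate 3. That culture also had the highest levels of the neuronal genes *Prph* (16.8 CPM), *Nefl* (9.17 CPM), and *Scn9a* (3.06 CPM), which were picked after their values were seen. The summed level of 7 neuronal markers, none of them at 0 and all with positive log2 fold changes, lay between 147 and 161 CPM in WT cultures and between 163 and 185 CPM in *Plxnb1*-/- cultures. *Tubb3* alone gave between 127 and 153 CPM of this sum, and 5 of the 7 overlapped between genotypes. Their part in the *Spock2* values was not tested.

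*Sparc*, the founding member of the family, lies on chromosome 11 (55394500 to 55423183, minus strand). It measured 3776, 4119, and 3740 CPM in WT against 3522, 3683, and 3737 CPM in *Plxnb1*-/- replicates 1, 2, and 3. The gap between the nearest cultures was 2.80 CPM, far below the SD of 209 CPM in WT, and with the deposited FPKM values the genotypes overlapped. The log2 fold change was −0.09 (standard error 0.05) and −0.04 without WT replicate 2. *Sparcl1*, the gene of hevin, lies on chromosome 5 (104079111 to 104113733, minus strand). It varied most among WT cultures relative to its mean, at 104, 221, and 178 CPM, and stood at 152, 158, and 164 CPM in *Plxnb1*-/- replicates 1, 2, and 3, inside the WT range. Its log2 fold change of −0.08 (standard error 0.21) turned to 0.17 without WT replicate 2, the highest culture, and was −0.33 without WT replicate 1, the lowest.

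*Smoc1* and *Smoc2* encode calcium-binding proteins of basement membranes. *Smoc1* lies on chromosome 12 (81026808 to 81186414, plus strand) and measured 81.2, 100, and 82.4 CPM in WT against 74.8, 73.8, and 60.9 CPM in *Plxnb1*-/- replicates 1, 2, and 3. The genotypes did not overlap, and the log2 fold change was −0.33 (standard error 0.10), the largest after that of *Spock3*. It was −0.22 without WT replicate 2 and −0.24 without *Plxnb1*-/- replicate 3, the lowest culture. *Smoc2* lies on chromosome 17 (14279506 to 14404790, plus strand) and measured 301, 393, and 339 CPM in WT against 312, 304, and 259 CPM in *Plxnb1*-/- replicates 1, 2, and 3. WT replicate 1 was below 2 of the *Plxnb1*-/- cultures. The log2 fold change was −0.24 (standard error 0.10), −0.13 without WT replicate 2 and −0.16 without *Plxnb1*-/- replicate 3.

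*Fstl1*, whose product binds BMP ligands, lies on chromosome 16 (37776873 to 37836514, plus strand). It measured 1289, 1727, and 1362 CPM in WT against 1227, 1259, and 1196 CPM in *Plxnb1*-/- replicates 1, 2, and 3, without overlap. The log2 fold change was −0.25 (standard error 0.10), and −0.11 without WT replicate 2. The WT SD of 234 CPM was close to the difference of the means, 1459 and 1227 CPM.

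**Figure D2:**
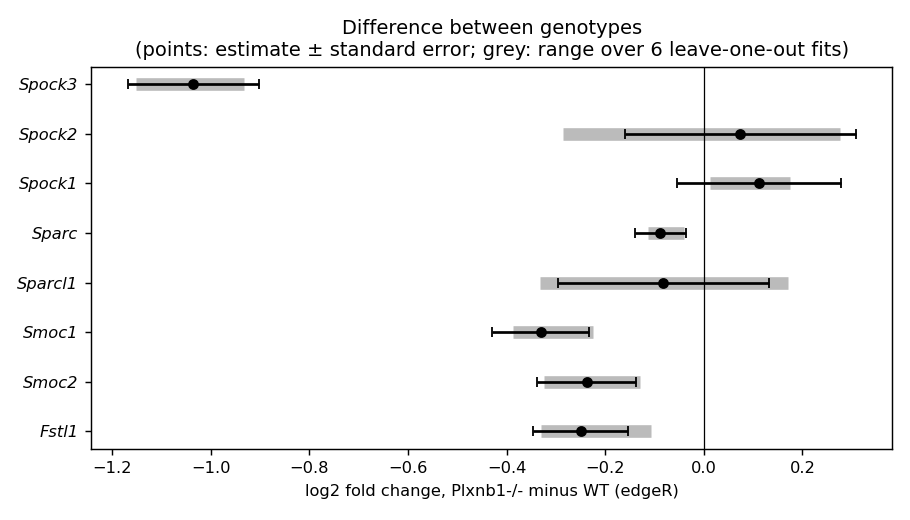
Log2 fold change, *Plxnb1*-/- minus WT, of each gene from edgeR (horizontal axis), as the estimate with its standard error in black and the range over the 6 fits without 1 culture in grey. *Spock3* lies between −1.15 and −0.93 in these fits, and the grey bars of *Spock2* and *Sparcl1* cross 0.

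Of the 8 genes, 6 had a negative and 2 a positive log2 fold change, with a median of −0.16, against a median of 0.0050 over all tested genes, of which 48.5% were negative. In 4 genes, *Spock3*, *Sparc*, *Smoc1*, and *Fstl1*, every *Plxnb1*-/- culture was below every WT culture, a pattern found in 10.4% of all tested genes. edgeR's quasi-likelihood test with Benjamini-Hochberg adjustment called 0 of the 8 genes (adjusted p below 0.05 and absolute log2 fold change above 0.25), a rule that called 0.0358% of tested genes. At an unadjusted p below 0.05, 4 of the 8 passed, *Spock3*, *Smoc1*, *Smoc2*, and *Fstl1*, all lower in *Plxnb1*-/- SCs, against 6.78% of tested genes. DESeq2 called 1, *Spock3*, against 1.50% of tested genes. *Spock3* was also called by edgeR with no filter on low counts, which called 0.949% of its genes, and without WT replicate 3, which called 0.0314%. Because this contrast chose the genes, nothing is read from these counts.

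*Sparc*, *Sparcl1*, *Smoc1*, *Smoc2*, and *Fstl1* were each highest in WT replicate 2, as were 25.1% of all tested genes. The same culture was highest for 6 of 8 fibroblast markers and for 3 of 7 mural markers, among them *Thy1* (652 CPM), *Pdgfra* (91.0 CPM), *Col3a1* (6130 CPM), and *Acta2* (1173 CPM), and it was lowest for *Sox10* (432 CPM). It was also the lowest culture for the mural markers *Rgs5* (83.9 CPM) and *Myh11* (5.02 CPM). Of the 12 SC markers, *S100b* was highest in this culture (8.22 CPM), and *Egr2* was lowest in WT replicate 1 (116 CPM). The remaining SC markers were lowest in WT replicate 2. *Spock3* was highest in WT replicate 1. The part of other cell types in these values was not tested.

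**Figure D3:**
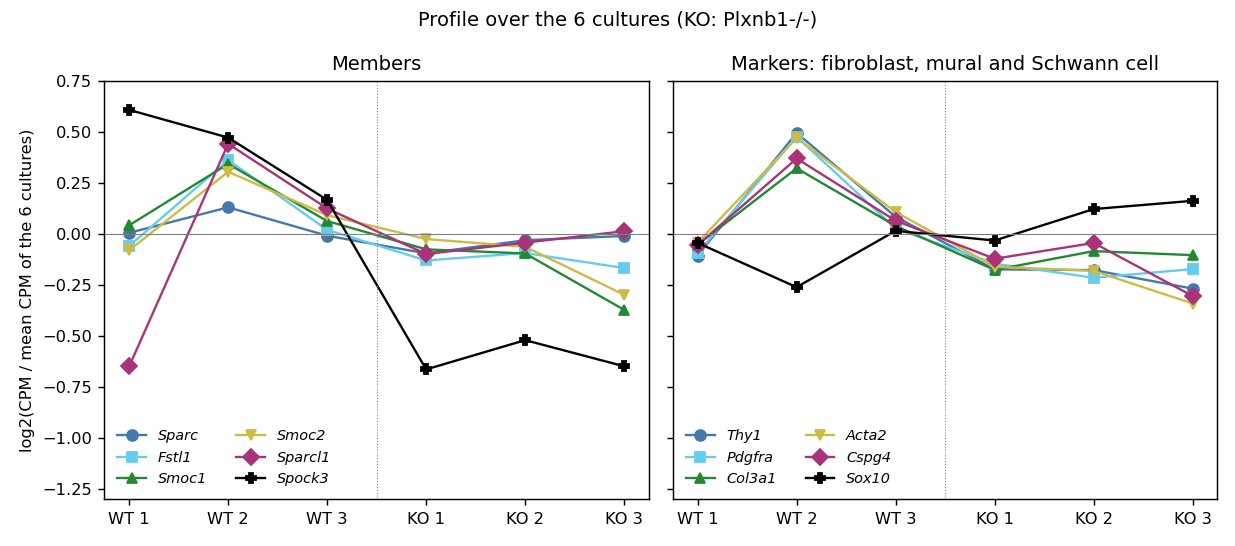
Log2 ratio of each culture's CPM to the mean of the 6 cultures (vertical axis), for members on the left and for fibroblast, mural, and SC markers on the right. *Sparc*, *Fstl1*, *Smoc1*, *Smoc2*, and *Sparcl1* peak in WT replicate 2, while *Spock3* steps down between genotypes. *Thy1*, *Pdgfra*, *Col3a1*, *Acta2*, and *Cspg4* were picked as abundant markers highest in WT replicate 2, where *Sox10* is lowest. Markers that go the other way are not drawn, among them *Rgs5* and *Myh11*, lowest in that culture, and *S100b*, highest in it.

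To compare genes with each other, CPM was divided by the length of all annotated exons. On this scale *Sparc* stood highest, at 1024 ± 55.2 CPM per kb in WT and 963 ± 29.5 CPM per kb in *Plxnb1*-/- SCs (SD, n = 3). *Fstl1* followed at 297 ± 47.7 CPM per kb in WT and 249.8 ± 6.37 CPM per kb in *Plxnb1*-/- SCs, with no culture overlapping those of *Sparc* or of the next gene. *Sparcl1* (57.0 ± 20.2 CPM per kb in WT) and *Smoc2* (49.5 ± 6.66 CPM per kb in WT) overlapped. With the longest transcript as the length, the WT mean of *Smoc2* was above that of *Sparcl1*, at 86.6 against 60.7 CPM per kb, again with overlapping cultures. *Smoc1* came next, at 25.1 ± 3.02 CPM per kb in WT and 20.0 ± 2.22 CPM per kb in *Plxnb1*-/- SCs, below every *Smoc2* value.

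The testicans stood far below, with *Spock2* at 1.27 ± 0.151 CPM per kb in WT, *Spock3* at 0.775 ± 0.118, and *Spock1* at 0.133 ± 0.0160. In *Plxnb1*-/- SCs *Spock2* measured 1.33 ± 0.523, *Spock3* 0.378 ± 0.0209, and *Spock1* 0.144 ± 0.0160 CPM per kb, so the order was the same in both genotypes. By the longest transcript, *Spock3* was level with *Spock2* in WT (1.46 against 1.34 CPM per kb, with overlapping cultures), and below it in *Plxnb1*-/- SCs (0.713 against 1.41). Since the aligner used does not span introns, reads across exon junctions can be lost, and levels per kb depend on the exon structure of each gene as well as on its expression.

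**Figure D4:**
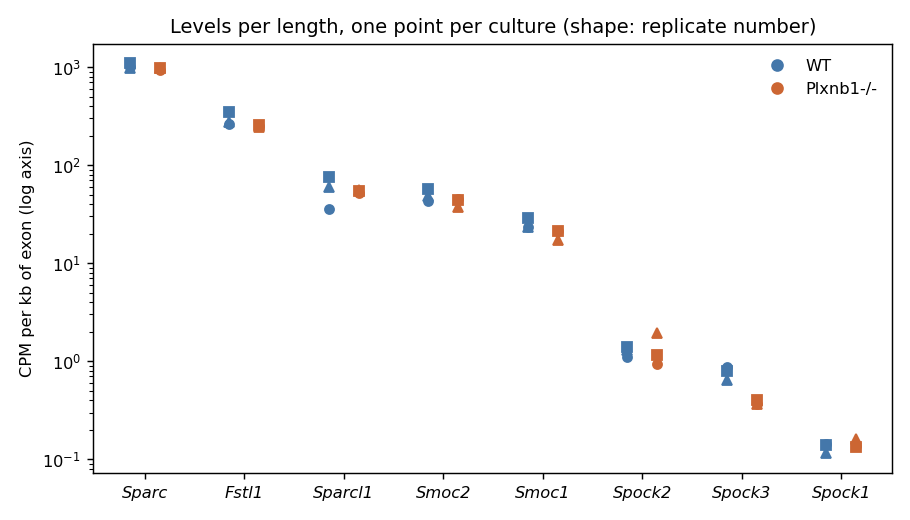
CPM per kb of annotated exon (log axis) of the 8 genes, ordered by the WT mean, with a point for each WT and *Plxnb1*-/- culture. Levels run from about 1024 for *Sparc* to 0.133 for *Spock1* in WT, and *Spock3* is the gene whose genotypes are farthest apart on this axis.

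The genes with profiles most like that of *Spock3* over the 6 cultures were *Lonrf1* (Pearson's r = 0.992), *Lyve1* (0.991), *U2af2* (0.989), Gm34678 (0.989), and *Srp19* (0.988), out of 14984 genes with a mean of at least 1 CPM, of which 72 had r above 0.95. With 6 cultures from the same 2 genotypes, this is a description. Gm34678 is annotated as antisense to another gene, and without a stated strand setting its reads cannot be told apart from those of that gene. *Lyve1*, a hyaluronan receptor of lymphatic endothelium and some macrophages, measured 2.84, 2.75, and 2.43 CPM in WT against 1.88, 1.99, and 1.76 CPM in *Plxnb1*-/- replicates 1, 2, and 3. The other 4 differed less between genotypes, with log2 fold changes between −0.28 and −0.08.

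Relatives and partners of these proteins were followed in 4 lists, none of which had a gene called by edgeR. Over all tested genes, edgeR called 0.0358% and DESeq2 1.50%, and 48.5% had a negative log2 fold change. Of 11 genes with follistatin-like domains, 5 were lower and 6 higher (log2 fold change at the median 0.0045, edgeR adjusted p between 0.273 and 0.992). *Tmeff1*, a membrane protein with follistatin-like modules, measured 46.2 ± 9.77 CPM in WT against 31.4 ± 3.94 CPM in *Plxnb1*-/- SCs (SD, n = 3), without overlap, a log2 fold change of −0.56 that was −0.37 without WT replicate 2. DESeq2 called it (adjusted p = 0.00618 from DESeq2). The other named genes of this list were *Htra3* (log2 fold change −0.17) and *Igfbp7* (−0.09) on the lower side, and *Fstl4* (0.37), *Reck* (0.21), an inhibitor of metalloproteinases, and *Agrn* (0.18), the gene of agrin, on the higher side. Without WT replicate 2, *Htra3* stood at −0.05, *Igfbp7* at −0.04, *Fstl4* at 0.58, and *Agrn* at 0.12.

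Among 12 proteases and inhibitors linked to testicans, 6 were lower and 6 higher (log2 fold change at the median 0.0037, edgeR adjusted p between 0.273 and 0.967). *Mmp9*, a gelatinase, measured 7.64 ± 2.62 CPM in WT against 4.17 ± 0.966 CPM in *Plxnb1*-/- SCs (SD, n = 3), without overlap. Its log2 fold change was −0.87, and −0.57 without WT replicate 2, and it was called by DESeq2 (adjusted p = 0.00955 from DESeq2). The membrane-type enzyme *Mmp14*, which activates pro-MMP2, stood at −0.12 on the log2 scale, *Ctsk*, a collagen-degrading cathepsin, at −0.32 (−0.19 without WT replicate 2), and the membrane-type enzymes *Mmp15*, *Mmp25*, and *Mmp17* at 0.24, 0.13, and 0.12. Without WT replicate 2 these last were 0.13, 0.25, and 0.07.

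Of 15 binding partners and receptors of SPARC and hevin, 10 were lower and 5 higher (log2 fold change at the median −0.09, edgeR adjusted p between 0.273 and 0.845). *Col1a1*, a chain of the collagen that SPARC binds, measured 5695, 7095, and 5869 CPM in WT against 5038, 5232, and 4906 CPM in *Plxnb1*-/- replicates 1, 2, and 3, a log2 fold change of −0.30 without overlap, and of −0.19 without WT replicate 2. *Vegfa*, a growth factor that SPARC binds, stood at −0.45 and *Col5a1* at −0.24 on the log2 scale. DESeq2 called *Col1a1* and *Vegfa* (adjusted p = 0.0258 and 0.0194 from DESeq2). *Stab1*, the scavenger receptor that clears SPARC, had a log2 fold change of 0.26, and *Vcam1*, an adhesion molecule, one of 0.08 that turned to −0.08 without WT replicate 2.

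In the BMP pathway, 15 of 22 genes were lower and 7 higher (log2 fold change at the median −0.02, edgeR adjusted p between 0.266 and 1.000). The ligands *Bmp6* and *Bmp7* measured 30.2 ± 9.67 and 8.86 ± 1.31 CPM in WT against 18.8 ± 1.15 and 6.08 ± 0.866 CPM in *Plxnb1*-/- SCs (SD, n = 3), without overlap in either gene. Their log2 fold changes were −0.68 and −0.54, or −0.40 and −0.44 without WT replicate 2, and that of the receptor *Bmpr1b* was −0.48, or −0.29 without that culture. *Id2*, a transcriptional inhibitor and known BMP target, was higher in every *Plxnb1*-/- culture, at 78.5 ± 14.0 CPM in WT against 108 ± 5.61 CPM in *Plxnb1*-/- SCs (log2 fold change 0.46). *Id4* and *Smad6* had log2 fold changes of 0.41 (0.23 without WT replicate 2) and 0.27. The other *Id* genes of the list, *Id1* and *Id3*, overlapped between genotypes, at 0.13 and −6.9e-05, or 0.04 and 0.02 without WT replicate 2. DESeq2 called *Bmp7* and *Id2* (adjusted p = 0.0143 and 0.00566 from DESeq2).

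**Figure D5:**
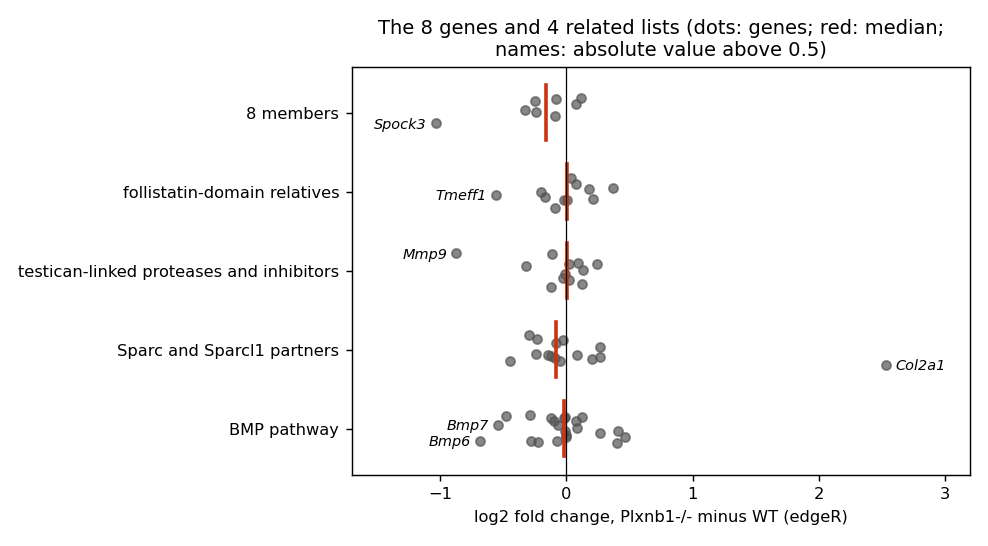
Log2 fold change, *Plxnb1*-/- minus WT (horizontal axis), of the 8 genes and of the tested genes in 4 related lists, with a dot per gene, a red bar at the median, and names where the absolute value is above 0.5. The list medians lie between −0.09 and 0.0045, and *Col2a1* stands far to the right.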

How the data were processed

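RNA-seq libraries of 3 WT and 3 *Plxnb1*-/- SC cultures, grouped by the sample titles, were analysed. Per the labels and the study's methods, the authors trimmed reads with Trim Galore 0.6.5, aligned them to mm10 with Bowtie2 2.4.1, removed duplicates with SAMtools 1.10, and deposited featureCounts counts on exons, without normalization. The library kit keeps strand, but the strand setting of the counting is not given in the sources used here. The deposited FPKM values divide by gene length, and for all 8 members that length equals the whole span of the gene, introns included.

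A gene was tested if 5 or more libraries held 2 or more of its counts (22318 of 55401, of which 55141 IDs matched GENCODE M21 of GRCm38, an older release than the one the authors used). edgeR 4.0.16 (TMM, quasi-likelihood, genotype only, R 4.3.3) gave fold changes, and standard errors came from the square root of its F statistic. The Benjamini-Hochberg adjustment covered every tested gene. Scripts were tested on simulated data. Profiles used log2 CPM with a prior count of 2. DESeq2 1.42.0, limma 3.58.1 on log2(FPKM + 0.1) or log2(FPKM + 1), other normalizations and filters, and omission of single cultures were alternatives. Tables were made with Python 3.11.15 and pandas 2.3.3.

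Members and lists were chosen with earlier results of these data known. Named genes are the members, *Plxnb1*, up to 3 genes per list and direction with the largest change at a mean of at least 1 CPM, the 5 genes most like *Spock3*, and markers that move with a member. *Prph*, *Nefl*, and *Scn9a* were picked after their values were seen. *Id1* and *Id3* are given to complete the *Id* genes of the BMP list. Further markers are named to show where a list is not uniform.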

Additional observations from a re-analysis of the deposited data

How the results depend on the processing

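The number of members called was 0 in the main edgeR fit and stayed 0 in edgeR with other normalizations. It became 1, *Spock3*, with DESeq2 and with no filter on low counts, and ranged from 0 to 1 with single cultures left out. Since *Spock3* was chosen for its fall in this contrast, nothing is read from these calls. The number of all genes called moved from 8 to 335 with DESeq2 and to 296 with no filter on low counts. It was 5 with a replicate block, 3 with limma on log2(FPKM + 0.1) or log2(FPKM + 1), and from 4 to 25 with single cultures left out. It was 2 without chromosome 9, a fit that left out *Plxnb1* and the other genes there, so they could not be called. On log2(FPKM + 0.1), with or without the filter, the *Spock3* log2 fold change was −0.078, and on log2(FPKM + 1) it was −0.0084, while that of *Smoc1* was −0.10 on the latter. For *Spock3*, division by the gene span left at most 0.0131 FPKM, far below either pseudocount. Other alternatives moved no member's log2 fold change by more than the spread between cultures. Its sign changed for *Spock2* without WT replicate 1 (−0.02) or *Plxnb1*-/- replicate 3 (−0.28), and for *Sparcl1* without WT replicate 2 (0.17), and the cause was not tested. The labels do not say whether same-numbered cultures were prepared together. Their deviations from the genotype means correlated across genes at −0.02, 0.0078, and 0.07. These values show no effect shared by replicate number, but cannot tell how the cultures were prepared. The replicate block called 0 members. Depth limited *Spock1* most, with 68 to 94 counts per library.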

Other observations

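*Col2a1*, the cartilage collagen that SPARC can bind, had the largest log2 fold change of the 4 lists, 2.53 (standard error 0.86, adjusted p = 0.294 from edgeR). It measured 0.953, 0.735, and 0.621 CPM in WT against 1.04, 10.9, and 1.38 CPM in *Plxnb1*-/- replicates 1, 2, and 3. A single culture carried most of the difference. *Twist1*, a fibroblast marker, measured 19.2 ± 1.32 CPM in WT against 14.5 ± 1.46 CPM in *Plxnb1*-/- cultures (SD, n = 3), without overlap (log2 fold change −0.40, adjusted p = 0.266 from edgeR and 0.00665 from DESeq2, which called it). All 6 macrophage markers had positive log2 fold changes, with a median of 0.24 and adjusted p between 0.273 and 0.599 from edgeR, and their summed level lay between 32.5 and 36.6 CPM in WT and between 37.2 and 43.3 CPM in *Plxnb1*-/- cultures, while 4 of the 6 overlapped between genotypes.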
